A study of Oncorhynchus mykiss with 18 samples.

Results

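The private dual-marked sites of the TAC-1 testis are regions that carried H3K4me3 and H3K36me3 in this rainbow trout (Oncorhynchus mykiss) and no H3K4me3 peak in the trout TAC-3. They were selected by rule from the peak lists: an H3K4me3 region of TAC-1 under 2500 bp that overlapped a TAC-1 H3K36me3 peak by at least 1 bp and overlapped no TAC-3 H3K4me3 peak. The rule held for 85227 of the 153665 H3K4me3 regions of TAC-1 (55.5%), of which 84125 (98.7%) lay on the 32 assembled chromosomes, where all shares below were computed. The presence of both marks and the absence of H3K4me3 in TAC-3 are therefore properties of the selection and not results.

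The study mapped meiotic DNA double-strand breaks (DSBs) in testes of 3 individuals of strain INRA-AUT by DMC1 ChIP followed by sequencing of single-stranded DNA, and H3K4me3 and H3K36me3 by ChIP-seq in 2 of them. TAC-1 carried Prdm9 alleles 1 and 5 (genotype Prdm9 1/5). TAC-3, with genotype Prdm9 2/6, had no allele in common with it. RT-52, of genotype Prdm9 1/2, had allele 1 in common with TAC-1 and allele 2 with TAC-3 and was assayed for DMC1 only. The testes were at maturation stage III in TAC-1 and TAC-3 and at stage IV in RT-52. Each genotype was represented by 1 fish, and the 2 replicates of each assay were joined by the authors in 1 list, so that genotype, individual and, for RT-52, stage cannot be told apart. The tests below compare sites within these lists, and their p-values do not measure the spread between fish. All testes are mixed tissue, and fewer cells with a mark and less of the mark per cell cannot be told apart.

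PRDM9 is a methyltransferase that binds DNA through an array of zinc fingers, which differs between alleles, and deposits H3K4me3 and H3K36me3 on the nucleosomes beside its binding sites in meiotic cells. The study describes the marks as usually apart elsewhere, with H3K4me3 mainly at promoters and H3K36me3 over gene bodies. In the TAC-1 lists, however, 102057 of 153665 H3K4me3 regions overlapped an H3K36me3 peak. Whether the dual-marked regions are PRDM9 sites was not tested. In mammals, part of the PRDM9-bound sites receive a DSB, whose resected ends are bound by the recombinase DMC1, so a DMC1 hotspot marks where breaks were made.

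The lists differed in length. TAC-1 had 153665 H3K4me3 and 162044 H3K36me3 regions, and TAC-3 had 50548 and 40535. Peaks were called against input, and the number of input libraries was smaller for TAC-1 than for TAC-3. With H3K4me3 regions limited to the 50% of the TAC-1 list with the highest scores, 38545 private dual-marked sites were left on the chromosomes. The part of list length in their being private was otherwise not tested. On the chromosomes there were 595 DMC1 hotspots in TAC-1, 1869 in RT-52 and 197 in TAC-3. Of 35 germ cell, meiosis and testis somatic genes looked up as a check of the tissue, 23 were found in the gene table, and 21 of these had an H3K4me3 peak within 1 kb of a gene boundary in TAC-1 and 21 in TAC-3, where 52.4% and 48.8% of all genes in the table did. These 23 genes held 13 private dual-marked sites, too few for a statement on hotspots.

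The private dual-marked sites were mostly short and weak. Their width had a median of 330 bp (quartiles 224 and 735 bp) and their H3K4me3 score, the mean of the MACS2 peak scores merged in a region, a median of 235 (quartiles 160 and 365). Private H3K4me3-only sites of TAC-1, those without H3K36me3, numbered 28737 on the chromosomes and were narrower and weaker still, with a median width of 209 bp and a median score of 157. The 12268 common dual-marked sites, which also had H3K4me3 in TAC-3, were wider and stronger, with medians of 968 bp and 656.5. Together the private dual-marked sites covered 45.6 Mb, 2.04% of the chromosomes.

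At the private dual-marked sites the 2 marks nearly coincided, as they did at TAC-1 regions with both marks in general. The H3K36me3 peak had a median width of 440 bp and a median score of 301, and its middle lay a median of 20 bp (quartiles 8 and 102.5 bp) from the middle of the H3K4me3 region. In the median site it covered 100% of the H3K4me3 region. At common dual-marked sites the median distance was 22 bp and the median cover 92.7%. Over all TAC-1 regions under 2500 bp that met an H3K36me3 peak, these medians were 20.5 bp and 99.2%. Across the 84125 sites, the scores of the 2 marks were correlated with a Spearman coefficient of 0.52, and their widths with one of 0.61. Width and H3K4me3 score were less closely related (0.35). These points share their libraries and are given as a description.

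The private dual-marked sites met TAC-1 and RT-52 hotspots more often than random placement would give, as TAC-1 H3K4me3 regions did in general. A site was said to meet a hotspot where it overlapped the central 400 bp of the hotspot by at least 1 bp, and the expected share is the exact share of all possible starts on the same chromosome at which a region of that width would do so. Of 84125 sites, 125 met a TAC-1 hotspot, that is 0.149% (95% Wilson interval 0.125 to 0.177%), against 0.131% of all TAC-1 H3K4me3 regions under 2500 bp and 0.0253% expected. The observed share was 5.86 times the expected one (4.92 to 6.99). For RT-52, 281 sites met a hotspot, 0.334% (0.297 to 0.375%), against 0.299% of all regions under 2500 bp and 0.0799% expected, a ratio of 4.18 (3.72 to 4.70). For TAC-3, 4 sites met a hotspot, 0.00475% (0.00185 to 0.0122%), against 0.00892% of all regions and 0.00840% expected, and the interval of the ratio, 0.220 to 1.46, included 1. The rule leaves out regions with H3K4me3 in TAC-3, a mark that the study found enriched at TAC-3 and RT-52 hotspots. The TAC-3 and RT-52 shares are therefore not independent of the rule. Over all TAC-1 regions under 2500 bp the ratio was 4.90 for TAC-1 and 3.55 for RT-52 hotspots. The private dual-marked sites make up 84125 of the 145726 regions of this background, so their nearness to it is partly built in. For private H3K4me3-only sites the ratio was 8.33 and 5.16, above that of the private dual-marked sites. These 2 values rest on 51 and 100 sites that met a hotspot. Intervals here cover counting error only.

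Almost every private dual-marked site was without a detected hotspot. In all, 351 sites (0.417%) met a hotspot of any of the 3 individuals and 83774 met none. Of the 351, 224 met an RT-52 hotspot only, 66 a TAC-1 hotspot only, and 57 one of each. The remaining sites were 2 that met a TAC-1 and a TAC-3 hotspot and 2 that met a TAC-3 hotspot only, and 0 met hotspots of all 3 fish. The study calls the peaks common to TAC-1 and TAC-3 possibly artifactual, for want of the usual strand pattern. Without hotspots common to these fish, the ratio for TAC-3 was 0.381 (0.104 to 1.39).

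The same rule applied to TAC-3 with the fish exchanged gave a much smaller set, of which a larger share met hotspots. On the chromosomes, 2883 H3K4me3 regions of TAC-3 under 2500 bp overlapped a TAC-3 H3K36me3 peak and no TAC-1 H3K4me3 peak, and their median width was 847 bp. Of these, 25 (0.867%, 0.588 to 1.28%) met a TAC-3 hotspot, 75.5 times the expected share, and 203 (7.04%, 6.16 to 8.03%) met an RT-52 hotspot, 63.2 times the expected share. None met a TAC-1 hotspot (0 of 2883, which, at 3 counts, allows a share of up to 0.104%, where 0.035% was expected). The exchanged rule leaves out regions with H3K4me3 in TAC-1, a mark that the study found enriched at TAC-1 and RT-52 hotspots. This count of 0 and the RT-52 share are therefore not independent of the rule. The 2 sets came from lists of different length and width, and the difference between them was not tested. The share over all TAC-3 H3K4me3 regions is not given here. These ratios therefore cannot be told apart from a property of the TAC-3 list as a whole.

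The share of sites that met a hotspot was highest among the widest. In the narrowest quartile (112 to 224 bp), 6 of 21234 sites met a TAC-1 hotspot (0.0283%), 1.83 times the expected share. The second quartile (225 to 330 bp) had 5 of 20860 sites (0.0240%, 1.33 times) and the third (331 to 735 bp) 19 of 21037 (0.0903%, 3.74 times). In the widest quartile (736 to 2499 bp), 95 of 20994 sites met one (0.453%), 10.3 times the expected share. The ratio, which allows for width, had an interval of 8.46 to 12.6 in the widest and 0.839 to 3.99 in the narrowest quartile. Without that allowance, the odds in the widest quartile were 16.1 times those in the narrowest (95% interval 7.12 to 44.9; two-sided Fisher's exact test, p = 3.4e-22 after Benjamini-Hochberg adjustment over 4 tests). Width alone gave a 2.83-fold difference in expected share between these quartiles, which this test does not take out.

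For RT-52 hotspots the share also rose with width. From the narrowest to the widest quartile, 10, 17, 52 and 202 sites met one, and the ratios to the expected share were 0.976, 1.43, 3.26 and 6.93. The interval of the ratio was 6.04 to 7.95 in the widest and 0.530 to 1.80 in the narrowest quartile. The odds in the widest were 20.6 times as high, of which width alone gave a factor of 2.88 (11.0 to 43.7; Fisher's exact test, adjusted p = 4.0e-48). The 4 sites that met a TAC-3 hotspot fell 2, 0, 1 and 1 in the quartiles, too few for an order.

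**Figure D1:**
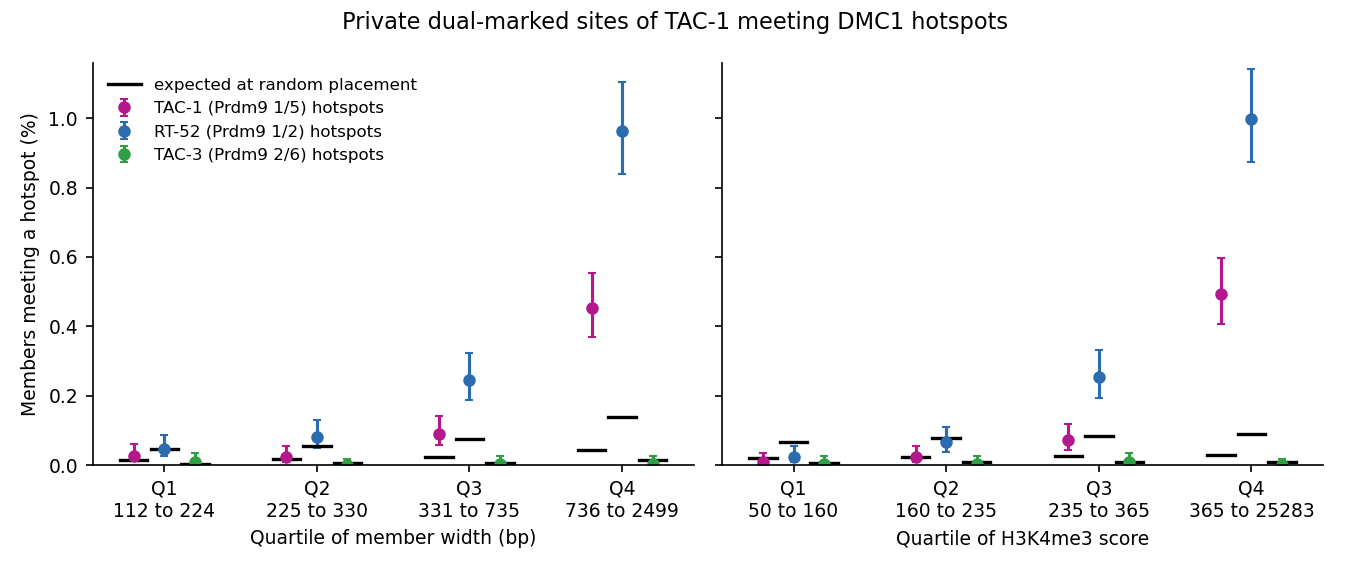
Share of private dual-marked sites of TAC-1 that met a DMC1 hotspot (vertical axis, percent) by quartile of width in bp (left) and of H3K4me3 score (right), with 95% Wilson intervals and, as black bars, the share expected at random placement on the same chromosome. TAC-1 and RT-52 shares lie above the expected level in the 2 upper quartiles and reach 0.492% and 0.998% in the highest score quartile, while TAC-3 shares stay near 0. TAC-3 and RT-52 shares are not independent of the rule, which leaves out regions with TAC-3 H3K4me3.

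By H3K4me3 score the spread was wider than by width, and private H3K4me3-only sites rose with score as well. In the lowest quartile (scores 50 to 160), 2 of 21152 sites met a TAC-1 hotspot, 0.445 times the expected share, and the next quartile had 5 sites, 0.941 times. The third quartile had 15 sites, 2.73 times the expected share. In the highest quartile (scores above 365), 103 of 20934 sites met one (0.492%, 0.406 to 0.596%), 17.1 times the expected share. The odds in the highest quartile were 52.3 times those in the lowest (14.1 to 438; Fisher's exact test, adjusted p = 1.0e-28).

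For RT-52 hotspots the 4 score quartiles held 5, 14, 53 and 209 sites, or 0.352, 0.836, 3.06 and 11.0 times the expected share, and the odds ratio of the highest to the lowest was 42.6 (18.0 to 133; Fisher's exact test, adjusted p = 1.4e-55). The lowest quartile therefore met RT-52 hotspots less often than placement anywhere on the same chromosome would give. Its interval was 0.0101 to 0.0553%, below the expected 0.0672%. That expectation does not allow for position along the chromosome. With placement kept to the same part of the chromosome, the ratio was 0.435, and the interval of the share included this second expectation. Of the sites that met a TAC-3 hotspot, 0 of 20934 were in the highest score quartile, which, at 3 counts, allows a share of up to 0.0143%.

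The 7041 sites in the highest quartile of both held 80 of the 125 that met a TAC-1 hotspot (1.14% of these sites, 25.5 times the expected share) and 153 of the 281 that met an RT-52 hotspot (2.17%, 15.5 times). Among the widest sites, those in the lowest score quartile met TAC-1 hotspots in 1 of 3019 cases, 0.804 times the expected share. Among the highest scores, the narrowest sites met TAC-1 hotspots in 1 of 1354 cases and RT-52 hotspots in 6.

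**Figure D2:**
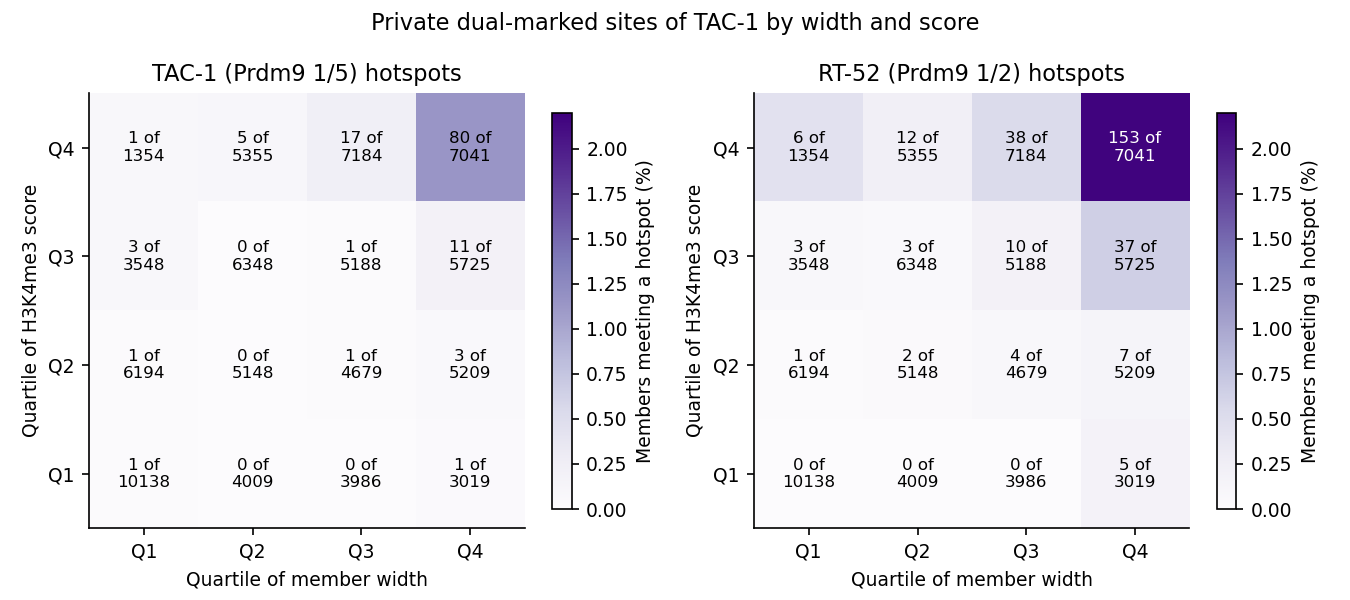
Number of private dual-marked sites of TAC-1 that met a TAC-1 (left) or RT-52 (right) hotspot, out of all sites in each combination of width quartile (horizontal) and H3K4me3 score quartile (vertical). Colour gives the percentage. The corner of widest and highest-scoring sites holds 80 of 7041 sites for TAC-1 and 153 of 7041 for RT-52.

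A small top of the score range held most of these sites. The 8413 sites in the highest 10% of scores (569 or more) included 82 of the 125 that met a TAC-1 hotspot (65.6%), 31.5 times the expected share, and 146 of the 281 that met an RT-52 hotspot (52.0%). In the highest 1% (842 sites with scores of 1417 or more), 32 met a TAC-1 hotspot (3.8%, 2.70 to 5.32%; 106 times expected) and 50 an RT-52 hotspot (5.94%, 4.53 to 7.74%; 52.1 times). The other 90% of sites still met TAC-1 hotspots 2.30 times and RT-52 hotspots 2.29 times as often as random placement would give. The top 10% and 1% were not computed for private H3K4me3-only sites. In the highest score class, 103 of 20934 private dual-marked and 25 of 2278 private H3K4me3-only sites met a TAC-1 hotspot (odds ratio 0.446). For RT-52 it was 209 and 35 of these sites (odds ratio 0.646). High shares at high scores were thus not particular to dual-marked sites. The private dual-marked sites that met a TAC-1 hotspot had a median width of 1096 bp and a median score of 745. Those that met no hotspot had medians of 329 bp and 234.

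The H3K36me3 peak was also wider at sites that met a hotspot. At those that met a TAC-1 hotspot it had a median width of 999 bp and a median score of 353.7, against 439 bp and 301 at sites that met none. Its middle lay a median of 194 bp from that of H3K4me3, against 20 bp at sites without a hotspot. The width of the H3K4me3 region, itself larger at sites that met a hotspot, was not held equal here.

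Over all widths, private dual-marked and private H3K4me3-only sites did not differ past the threshold in how often they met a hotspot. A TAC-1 hotspot was met by 0.149% of the former and 0.177% of the latter (odds ratio 0.837, 0.600 to 1.18; Fisher's exact test, p = 0.30, adjusted p = 0.57 over 3 lists). For RT-52 the shares were 0.334% and 0.348% (odds ratio 0.960, 0.761 to 1.22, with an adjusted p of 0.72 by the same exact test). For TAC-3 they were 4 of 84125 and 3 of 28737 sites (odds ratio 0.455, 0.0770 to 3.11, with an adjusted p of 0.57 by the same exact test). These intervals leave room for a difference in either direction.

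Since the dual-marked sites were wider and stronger, the comparison was repeated among sites of like width and score. In the narrowest class (up to 224 bp), 0.0283% of dual-marked and 0.101% of H3K4me3-only sites met a TAC-1 hotspot (odds ratio 0.279, 0.0895 to 0.752; Fisher's exact test, p = 0.013 after adjustment for 16 tests). For RT-52 the narrowest class gave 0.0471% and 0.221% (odds ratio 0.213, 0.0939 to 0.439, with an adjusted p of 1.9e-05 by the same exact test). The second class had odds ratios of 0.366 for TAC-1 (adjusted p = 0.17) and 0.310 for RT-52 (adjusted p = 0.0064), by the same exact test. The third class had odds ratios of 0.337 for TAC-1 (adjusted p = 0.012) and 0.422 for RT-52 (adjusted p = 0.0024), by the same exact test. The widest class did not follow: 0.453% against 0.498% for TAC-1 (odds ratio 0.909, 0.561 to 1.54) and 0.962% against 0.687% for RT-52 (odds ratio 1.40, 0.946 to 2.15), neither past the threshold. In classes of like score, the odds ratios ran from 0.177 to 0.446 for TAC-1 and from 0.253 to 0.646 for RT-52, and 7 of these 8 were past the threshold, the second score class for TAC-1 being the exception (adjusted p = 0.16 by Fisher's exact test). Pooled over the quartile combinations of width and score, the Mantel-Haenszel odds ratio was 0.299 (0.208 to 0.431) for TAC-1 and 0.362 (0.280 to 0.467) for RT-52.

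**Figure D3:**
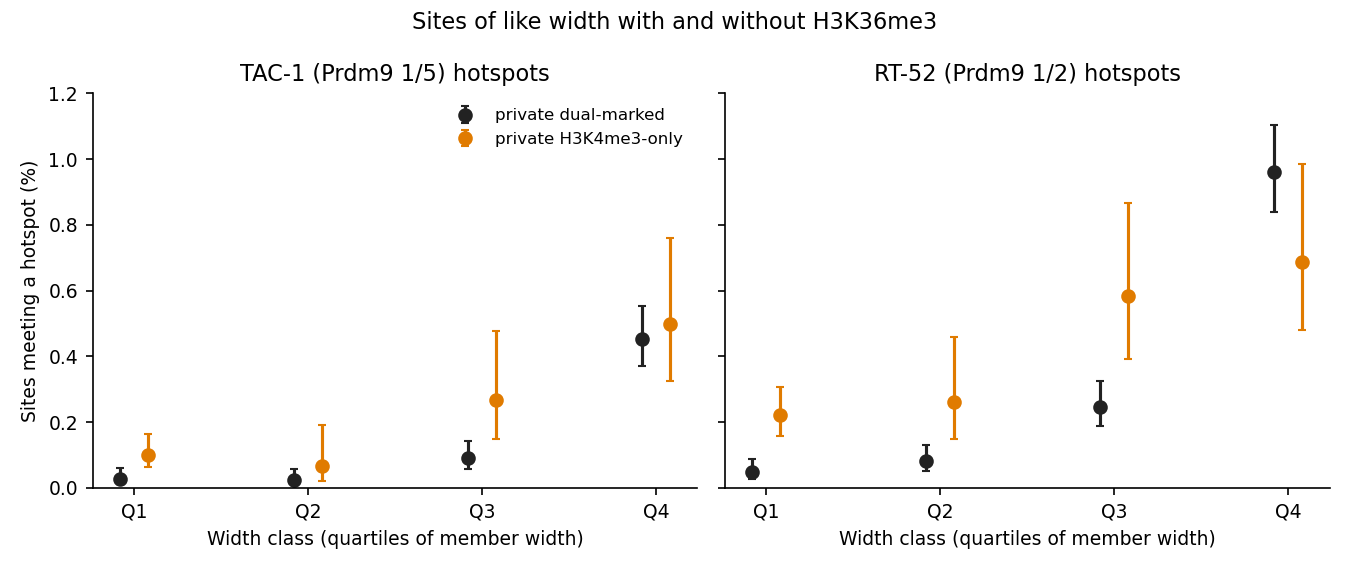
Share of sites that met a TAC-1 (left) or RT-52 (right) hotspot (vertical axis, percent) for private dual-marked (black) and private H3K4me3-only sites (orange) of TAC-1 in 4 width classes set by the quartiles of the dual-marked sites, with 95% Wilson intervals. Black points lie below orange ones in every class for TAC-1 and in the 3 narrower classes for RT-52, and above in the widest class for RT-52 (0.962% and 0.687%).

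Position along the chromosomes moved with this comparison. Private H3K4me3-only sites lay nearer the chromosome ends, where hotspots were dense, and when only the distance from the end was held equal the pooled odds ratio was 1.05 (0.760 to 1.46) for TAC-1 and 1.14 (0.903 to 1.43) for RT-52. With width, score and distance from the end held equal together, the ratio was 0.444 (0.309 to 0.636) and 0.496 (0.385 to 0.640). Whether the interval excluded 1 thus depended on what was held equal, and the pooled intervals for TAC-1 and RT-52 that excluded 1 lay below it. The direction also changed with a shorter H3K36me3 list, which altered both groups. With only as many TAC-1 H3K36me3 peaks as in TAC-3, taken from the highest score, 27027 sites remained. Private sites whose H3K36me3 peak was left out then counted as H3K4me3-only, and that group grew from 28737 to 85835 sites. This setting thus does not compare sites with and without H3K36me3. The odds ratio was then 1.33 (0.944 to 1.86) for TAC-1 and 1.5 (1.2 to 1.87; Fisher's exact test, adjusted p = 0.0011) for RT-52.

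Against common dual-marked sites the difference was not past the threshold after adjustment. Of 12268 common dual-marked sites, 9 met a TAC-1 hotspot (0.0734%), 1.85 times their expected share, and the odds ratio of private to common sites was 2.03 (1.03 to 4.54; Fisher's exact test, p = 0.037, adjusted p = 0.11). For RT-52 it was 29 sites (0.236%) and an odds ratio of 1.41 (0.963 to 2.15, with an adjusted p of 0.13 by the same exact test). For TAC-3, 2 common sites met a hotspot, and the odds ratio was 0.292 (0.0418 to 3.22, with an adjusted p of 0.17 by the same exact test). The groups were set apart by TAC-3 H3K4me3, a mark that the study found enriched at TAC-3 and RT-52 hotspots. The TAC-3 and RT-52 comparisons are therefore not independent of the rule. When H3K4me3 regions were limited to the 50% with the highest scores, the ratios rose to 4.0 for TAC-1 (adjusted p = 1.2e-05, Fisher's exact test) and 3.01 for RT-52 (adjusted p = 9.0e-09). For RT-52 the ratio turned to 0.937 with full-length hotspots and to 0.703 for sites under 1000 bp, neither past the threshold.

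Seen from the hotspots, 125 of 595 TAC-1 hotspots (21.0%, 17.9 to 24.5%) met a private dual-marked site, where 32.1% met any TAC-1 H3K4me3 region under 2500 bp. Broader private dual-marked regions, which the width limit leaves out, lay at a further 24 TAC-1 hotspots, private H3K4me3-only sites at 51 and common H3K4me3 regions at 21, and 374 (62.9%) met none. Of 1869 RT-52 hotspots, 282 (15.1%, 13.5 to 16.8%) met a private dual-marked site, against 23.4% that met any such region, and of 197 TAC-3 hotspots 4 did (2.03%, 0.792 to 5.10%).

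The stronger TAC-1 hotspots met a private dual-marked site more often. Hotspots were ranked within a list by the value the authors gave each, whose unit is not given in the sources used here. From the lowest to the highest quartile of values, 14.6%, 19.3%, 23.3% and 27.4% of TAC-1 hotspots met such a site (odds ratio of highest to lowest 2.21, 1.21 to 4.12; Fisher's exact test, p = 0.014 after adjustment for 2 tests). For RT-52 the quartiles gave 15.4%, 14.6%, 15.8% and 14.5% (odds ratio 0.933, 0.641 to 1.36, with an adjusted p of 0.72 by the same exact test). With sites limited to under 1000 bp, the order in TAC-1 was lost (odds ratio 0.777, 0.311 to 1.88).

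Coverage by private dual-marked sites was highest around the centres of TAC-1 and RT-52 hotspots. Within 200 bp of a TAC-1 hotspot centre, private dual-marked sites covered a position in 17.2% of hotspots on average, against 6.13% at 1 kb, 2.60% at 4 to 5 kb and 1.81% at 20 to 50 kb. Around RT-52 hotspots the values were 11.8%, 5.06%, 2.56% and 1.94%. Around TAC-3 hotspots the centre was at 1.12% and the flank at 1.64%, with no peak at the centre. Since the rule leaves out regions with TAC-3 H3K4me3, the values around TAC-3 and RT-52 hotspots are not independent of it.

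**Figure D4:**
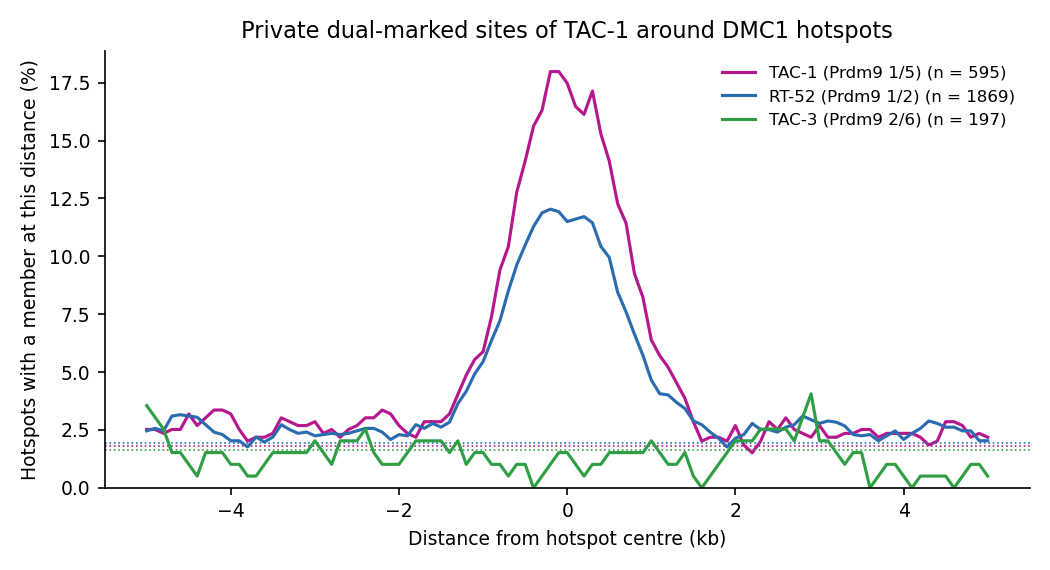
Percentage of DMC1 hotspots covered by a private dual-marked site of TAC-1 (vertical axis) at each distance in kb from the hotspot centre, in steps of 100 bp, for the 3 individuals. Dotted lines give the mean at 20 to 50 kb. TAC-1 and RT-52 curves peak at the centre, at 17.2% and 11.8% within 200 bp, and the TAC-3 curve does not (1.12%). The TAC-3 and RT-52 curves are not independent of the rule, which leaves out regions with TAC-3 H3K4me3.

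Private dual-marked sites were spread over all 32 chromosomes with little variation. Their density was 37.7 per Mb over all and ranged from 33.1 per Mb on chromosome 13 to 41.8 per Mb on chromosome 5 (SD 2.42 over 32 chromosomes). Sites that met a TAC-1 hotspot were found on all chromosomes but chromosome 13, with a median of 3 per chromosome, and sites that met an RT-52 hotspot on every one, with a median of 8. As a share of the private dual-marked sites of a chromosome, those that met a TAC-1 hotspot were most frequent on chromosome 20 (9 of 1790), and those that met an RT-52 hotspot on chromosome Y (18 of 1827) and chromosome 20 (17 of 1790). Neighbouring sites were a median of 16226 bp apart, and none were nearer than 1001 bp, the authors having merged peaks within 1 kb.

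The sites were sparser towards the chromosome ends, as common sites were. With each chromosome cut into 30 steps and folded at its middle, the outermost step held 4.92% of private dual-marked sites, where an even spread gives 6.67%, and the innermost held 7.48%. The outer 10% at each end, 20% of the length, held 15.5% of them, against 16.6% of all TAC-1 regions under 2500 bp and 21.4% of private H3K4me3-only sites (odds ratio 0.674, 0.651 to 0.697; Fisher's exact test, p = 1.9e-112). Common dual-marked sites had 15.5% and common H3K4me3-only sites 15.2% there. TAC-1 and RT-52 hotspots ran the other way, with 20.3% of TAC-1 and 19.0% of RT-52 hotspots in the outermost step and 1.85% and 0.482% in the innermost.

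**Figure D5:**
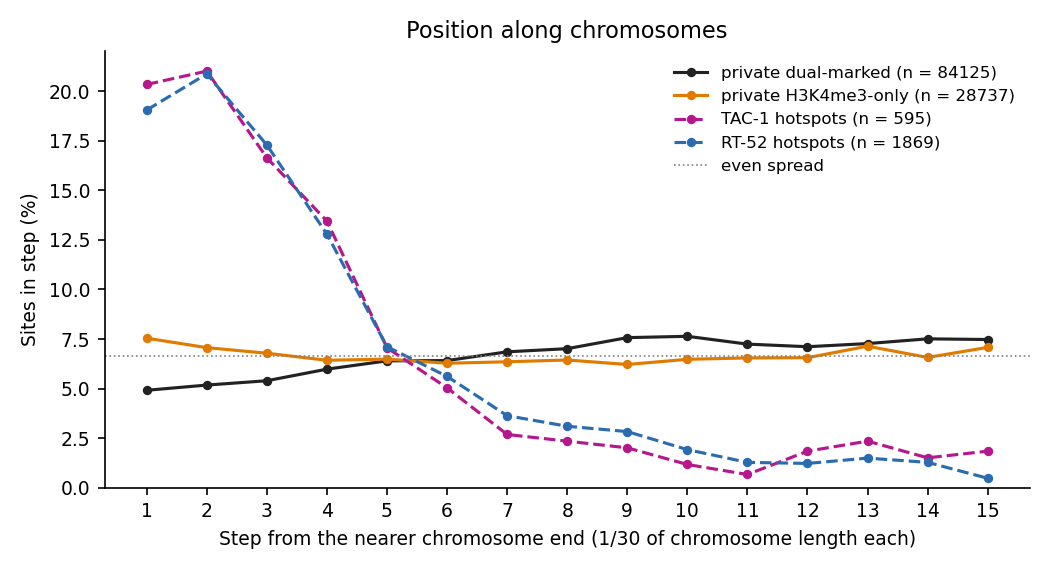
Percentage of sites (vertical axis) in each of 15 steps from the nearer chromosome end, each 1/30 of the chromosome length. Private dual-marked sites rise from 4.92% at the ends to 7.48% at the middle, private H3K4me3-only sites stay near the even spread of 6.67%, and TAC-1 and RT-52 hotspots fall from 20.3% and 19.0% at the ends to 1.85% and 0.482% at the middle.

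The few sites that met a hotspot followed the hotspots in position. Of the 125 that met a TAC-1 hotspot, 80 (64.0%) lay in the outer 10%, as did 143 of the 281 (50.9%) that met an RT-52 hotspot, against 15.3% of sites that met none. A site in the outer 10% met a TAC-1 hotspot in 0.614% of cases and a site further in in 0.0633% (odds ratio 9.75, 6.68 to 14.4; Fisher's exact test, p = 5.3e-34 after adjustment for 6 tests). For RT-52 the shares were 1.1% and 0.194% (odds ratio 5.70, 4.48 to 7.26, with an adjusted p of 1.1e-42 by the same exact test). Hotspots were crowded at the ends, which neither test takes out. For TAC-1, the share expected within the same step was 0.0761% in the outer 10%. It was 0.0196% in steps 4 to 9 and 0.00554% in steps 10 to 15. For RT-52 these expected shares were 0.239%, 0.0672% and 0.015%. Neither odds ratio can therefore be told apart from the position of the hotspots.

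When the expected share was taken within the same 1/30 of the chromosome, so that the crowding of hotspots at the ends was allowed for, sites in the outer 10% met TAC-1 hotspots 8.06 times and sites in steps 4 to 9 met them 6.62 times as often as such placement would give. In steps 10 to 15, the middle of the chromosomes, 1 of 37233 sites met a TAC-1 hotspot, 0.485 times the expected share. For RT-52 the 3 zones had ratios of 4.59, 5.01 and 4.31, with 24 sites in the middle zone. A count of 1 is too small to separate the middle zone from the expected share.

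Most private dual-marked sites were in genes and away from gene ends. The middle of the site lay inside an annotated gene in 68.4% of cases, against 64.9% of all TAC-1 regions under 2500 bp, 51.1% of private H3K4me3-only sites (odds ratio 2.07, 2.01 to 2.12; Fisher's exact test, p below 1e-300) and 57.6% of the chromosome length. For common sites it was 50.8% of the dual-marked and 78.7% of the H3K4me3-only ones. The rule set the 2 private groups apart by TAC-1 H3K36me3, a mark found over gene bodies. The test between them is therefore not independent of the rule. Within 1 kb of a gene boundary, where promoters lie, were 6.05% of private dual-marked and 7.35% of private H3K4me3-only sites, while 7.74% of the length lies there. Common sites were nearer gene boundaries, at 14.5% for dual-marked and 65.5% for H3K4me3-only. The gene table used gives no exons, so sites were not divided into exonic and intronic.

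Sites inside genes met TAC-1 hotspots less often than sites between genes, 0.127% against 0.195% (odds ratio 0.650, 0.449 to 0.946; Fisher's exact test, adjusted p = 0.031). For RT-52 they did not differ past the threshold (0.346% and 0.308%; odds ratio 1.12, 0.865 to 1.47, with an adjusted p of 0.40 by the same exact test). Neither H3K4me3 score nor position along the chromosome was held equal in this split. The 351 sites that met any hotspot included 239 inside genes, in 229 different genes.

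H3K36me3 in TAC-3 was present at part of the sites. The rule did not use that list, but it set the private groups apart by H3K36me3 in TAC-1. The contrast between them is therefore not independent of the rule. A TAC-3 H3K36me3 peak overlapped 13978 private dual-marked sites (16.6%), against 11% of all regions under 2500 bp, 4.12% expected at random placement and 1.82% of private H3K4me3-only sites (odds ratio 10.7, 9.82 to 11.7; Fisher's exact test, p below 1e-300). Among common sites, such a peak overlapped 10.9% of the dual-marked and 0.670% of the H3K4me3-only ones. Private dual-marked sites with a TAC-3 H3K36me3 peak met RT-52 hotspots less often than those without, 0.200% against 0.361% (odds ratio 0.555, 0.361 to 0.821; adjusted p = 0.0044 by Fisher's exact test). For TAC-1 hotspots the shares were 0.114% and 0.155% (odds ratio 0.736, 0.406 to 1.25, with an adjusted p of 0.34 by the same exact test). Score and position along the chromosome were not held equal in this split either. Nearness to TAC-3 H3K4me3 was uncommon: 974 sites (1.16%) lay within 1000 bp of a TAC-3 H3K4me3 peak, and the median distance was 15745 bp.

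Among sites that met a hotspot of both TAC-1 and RT-52, the highest H3K4me3 score was 5633, at chr27:43593081-43595191 (USDA_OmykA_1.1, as are all positions here) inside usp32, which encodes a ubiquitin-specific protease. This site was 2111 bp wide, its H3K36me3 score was 3757.5, and the centres of the marks were 3 bp apart. The next, at chr2:2173238-2173788 inside LOC118944029, had a score of 5558 in 551 bp, and the one after it, at chr2:11080158-11080880 inside washc5, a subunit of the WASH complex that acts on endosomes, had 3362. The other 7 of the highest 10 ranged from 1983 to 3165.5 and included sites inside lyst (chr16:1449816-1451758), known in mammals for lysosome traffic, and fras1 (chr11:79022032-79023263), which encodes an extracellular matrix protein. Of the 10 sites, 9 lay inside genes and 1, that of lyst, also had a TAC-3 H3K36me3 peak.

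The highest-valued hotspots of all met no private dual-marked site: 3 TAC-1 hotspots, up to a value of 1691, and 8 RT-52 hotspots, up to 2872, were above the highest that met one. The highest-valued TAC-1 hotspot that met a private dual-marked site (value 489) lay at chr18:69743806-69746241, where the site had a score of 1632 and no RT-52 hotspot was called. The second (419) was met by the site chr24:38985912-38986761 inside psmd8, which encodes a subunit of the proteasome, with a score of 803.5, and the RT-52 hotspot there had a value of 1136. The next (281) was met by the site chr26:6583942-6584944 inside LOC118944439, with a score of 3182. The highest-valued RT-52 hotspot at such a site (1489) was at chr11:436450-438096 inside slc22a13b, a member of the organic anion transporter family, where the score was 745 and the TAC-1 hotspot value 150. The following RT-52 hotspots were met by the sites chr20:8326887-8327914 inside LOC110498908 (hotspot value 1388, score 388.5) and chrY:3910497-3911840 outside genes (value 1302, score 487). Values of TAC-1 and RT-52 are on scales of their own and were not compared.

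The highest score of all, 25283, belonged to a site that met no hotspot, chr2:14333942-14334335 inside LOC110533643, 394 bp wide and with an H3K36me3 score of 8616. The 4 sites that met a TAC-3 hotspot had scores from 157 to 266, 0 of them in the highest score quartile. They were chr9:7945940-7946103, inside LOC110518778, and chr28:7043948-7044161, inside the lncRNA gene LOC110508412, where a TAC-1 hotspot was also met, and chr32:1823751-1824929, inside fam91a1, and chr3:62516444-62516859, inside LOC110520347. At the width limit, the widest sites taken in were 2499 bp, at chr8:21723947-21726445 (score 381) and chr10:2069244-2071742 (score 2126), and the narrowest left out were 2500 bp, at chr5:91194-93693 (368.3) and chr7:60504714-60507213 (251).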

How the data were processed

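The authors aligned reads to USDA_OmykA_1.1 with BWA (0.7.17-r1188, per the processing notes of the submitters) and called peaks with MACS2 (2.2.7.1). For the histone marks the deposited lists give 1 score per region: narrow peaks of each replicate were merged within 1 kb, and regions found in both replicates with a reciprocal overlap of 25% were kept. Hotspots were called on pooled replicates after a reproducibility filter, and the deposited value column is not named. Depth behind a region is unknown from these lists. The study reports mapped reads for its ChIP-seq experiments, which were not used here.

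Sequence names were matched to chromosomes through a gene table of the same build. Regions were overlapped in Python 3.11.15 and checked with bedtools 2.31.1. Expected shares were computed exactly. Shares have 95% Wilson intervals, and groups were compared with Fisher's exact test (SciPy 1.17.1), two-sided, adjusted by the Benjamini-Hochberg method with a threshold of 0.05. Scripts were tested on simulated data.

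Sites named were those that met hotspots of TAC-1 and TAC-3, the 10 highest scores that met TAC-1 and RT-52 hotspots, those at the 3 highest-valued hotspots of TAC-1 and of RT-52, the highest score, and the 2 on either side of the width limit. The 2 sites that met a TAC-3 hotspot only were added after their values were seen, as were the splits by TAC-3 H3K36me3, gene and chromosome end in hotspot shares and the comparisons within width, score and position. Members and lists were chosen with earlier results of these data known.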

Additional observations from a re-analysis of the deposited data

How the results depend on the processing

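Of 145 values under other settings, 111 kept their direction and their side of the threshold or stayed within the interval, 10 passed the threshold where they had not, 4 pooled odds ratios had an interval without 1 but no p, 11 moved and 9 turned direction. Of those 9, 1 also lost its call (TAC-1 hotspots by value, under 1000 bp, adjusted p = 0.89 by Fisher's exact test), 1 gained one (RT-52 against private H3K4me3-only sites, with fewer H3K36me3 peaks) and 1 was past the threshold in both directions (inside genes against gene boundaries). The rise with width and with score stayed past the threshold under every setting that gave an odds ratio, and so did the comparisons with private H3K4me3-only sites in TAC-3 H3K36me3 and at chromosome ends. The TAC-3 H3K36me3 comparison is not independent of the rule. In 4 cases the comparison group held no site that met a hotspot, so no odds ratio was given.

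The number of sites on the chromosomes fell from 84125 to 38545 with the 50% of H3K4me3 regions that scored highest and to 27027 with as many H3K36me3 peaks as TAC-3. The ratio of observed to expected share for TAC-1 was 3.09 with full-length hotspots, 10.7 with the highest-scoring 50%, 7.1 with fewer H3K36me3 peaks and 3.41 for sites under 1000 bp, and for RT-52 it was 2.29, 7.65, 5.32 and 2.33 and, within the same 1/30 of the chromosome, 4.72. With the hotspots common to TAC-1 and TAC-3 removed, the ratio was 6.31 for TAC-1 and 0.381 for TAC-3.

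Against private H3K4me3-only sites, the odds ratios for TAC-1 and RT-52 became 0.485 and 0.589 with the highest-scoring 50%, and 0.456 and 0.474 under 1000 bp. They turned to 1.33 and 1.5 with fewer H3K36me3 peaks, where sites whose H3K36me3 peak was left out counted as H3K4me3-only. Settings added after the data were seen gave 0.299 and 0.362 with width and score held equal, 1.05 and 1.14 with distance from the end held equal, and 0.444 and 0.496 with all held equal. Within 1 kb of a gene boundary, in place of inside a gene, the odds ratio was 0.812. Against common dual-marked sites, RT-52 gave 0.937 with full-length hotspots, 1.91 at an overlap of 100 bp, 3.01 with the highest-scoring 50%, 2.29 with fewer H3K36me3 peaks and 0.703 under 1000 bp. TAC-1 gave 2.36 at 100 bp and 4.0 with the highest-scoring 50%. TAC-3 gave 0.229 with full-length hotspots. The RT-52 and TAC-3 values against common dual-marked sites are not independent of the rule. Under 1000 bp the odds ratio of strongest to weakest hotspots was 0.777 for TAC-1 and 1.04 for RT-52. The cause of these differences was not tested.

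No paired analysis was possible because each list joins the replicates of 1 individual. For the same reason leaving out a replicate was not run. One fish per genotype, lists of unequal length and depth that was not taken into account limit all comparisons between individuals. A site without a hotspot is one at which none was detected.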
